A study of Mus musculus with 2 samples.

Results

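The genes examined here encode 10 enzymes of glycolysis and its side branch, namely Hk1, Hk2, Gpi1, Pfkl, Aldoa, Tpi1, Pgk1, Bpgm, Pgam1 and Pklr. They are 10 of the 21792 protein-coding genes in the annotation used. Each gene was given the Gata1 peaks with a midpoint between its ends or at most 50 kb beyond them, which gave 13 of the 4135 peaks. The genes were chosen by their place in glycolysis with earlier results of these data known, and Hk1 was selected on its number of Gata1 peaks. Its peak count, and the counts of the list that includes it, are therefore descriptions without a test.

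The peaks came from 1 chromatin immunoprecipitation sequencing (ChIP-seq) library made with an antibody to Gata1, a zinc finger transcription factor of the red cell lineage. Mouse embryonic stem cells had been differentiated as embryoid bodies for 5 days, and cells carrying both a Runx1-ires-GFP and a Gata1::mCherry reporter signal were sorted and pooled over several sorts. The design text of the series describes these cells as primitive erythroid. The series also lists 1 input chromatin library from the same cell type, whose antibody field names a rabbit IgG and which was not analysed here. There was no replicate. Each peak was an interval of 400 bp with no height or score, so a site could only be called or not called, and read depth is unknown. As a check of the cell label, 10 of 11 erythroid marker genes, Klf1 and Alas2 among them, had a peak in the gene or within 10 kb. None (0 of 8) of the markers of other lineages did, against 16.6% of all protein-coding genes, although within 50 kb 3 of those 8 did, against 32.0% of all. A peak is a property of the locus and does not measure expression.

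Glycolysis splits glucose into pyruvate and yields ATP without oxygen. A mature mammalian red cell has lost its mitochondria and lives on this pathway, and in humans inherited defects of several of its enzymes cause haemolytic anaemia. Bisphosphoglycerate, made from an intermediate of the path by the enzyme that Bpgm encodes, lowers the oxygen affinity of haemoglobin. Gata1 binds DNA at the word GATA, often in the longer forms AGATAA and TGATAA. The CACCC word is the core of sites bound by Klf1 and related factors.

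Gata1 peaks were unevenly spread over the 10 genes. Hk1 had 5, Aldoa had 4, Bpgm had 2, and Pgk1 and Tpi1 had 1 each. Hk2, Gpi1, Pfkl, Pgam1 and Pklr had 0. Of the 13 peaks, 9 lay inside the genes and 4 outside. Thus 5 of 10 genes had a peak within 50 kb, against 32.0% of all protein-coding genes, and 4 of 10 had a peak inside the gene, against 9.34% of all. At least 2 peaks inside the gene were found for Hk1 and Aldoa, against 1.52% of all. Without Hk1 the first count was 4 of the other 9. Aldoa, Pgk1 and Bpgm were then left with a peak inside the gene, and of these only Aldoa had at least 2 there. Those 2 Aldoa peaks were 594 bp apart, and positions alone cannot tell whether they are separate sites. With peaks within 2 kb counted once, Aldoa had 3 peaks within 50 kb and not 4.

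**Figure D1:**
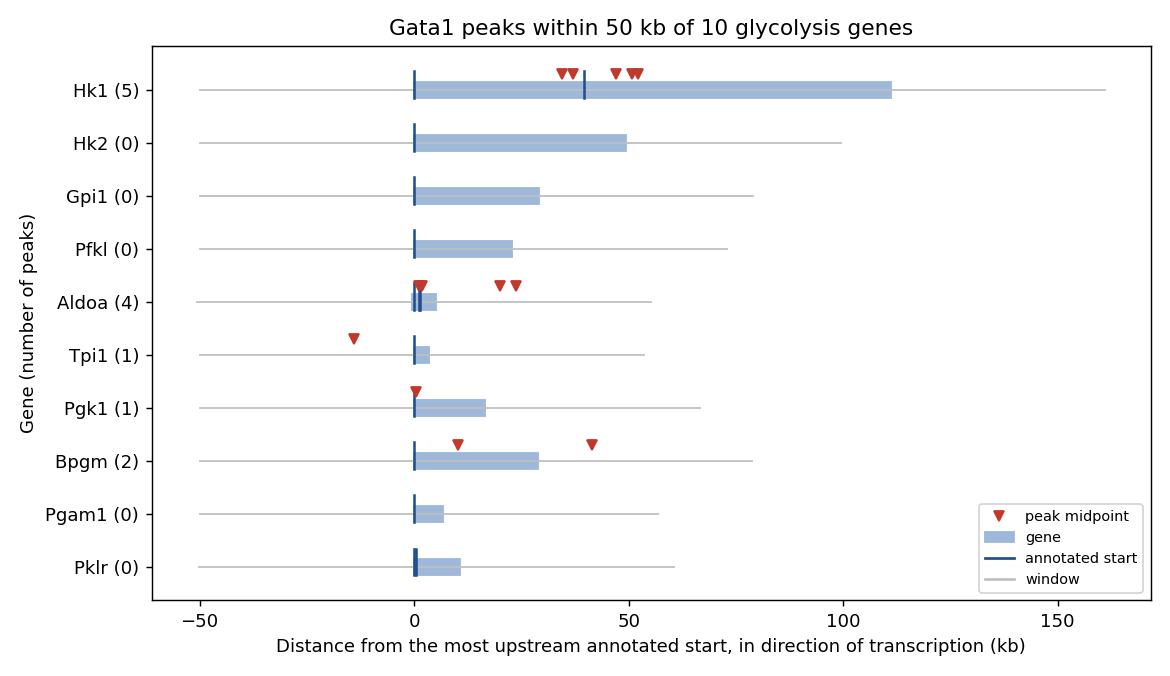
Each of the 10 genes is drawn from its most upstream annotated start (0 on the horizontal axis, in kb, in the direction of transcription), with its 50 kb flanks as a grey line, the gene as a bar, annotated starts as vertical lines and peak midpoints as triangles. Peaks stand inside Hk1, Aldoa, Pgk1 and Bpgm, beside Aldoa, Bpgm and Tpi1, and in none of the windows of the other 5 genes.

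The DNA just before an annotated start is shown for 5 starts. The first is the second Aldoa start, because the shown bases lie wholly in a peak. The outer Aldoa start and the inner Hk1 start follow because peaks lie near them but not on them. The Pgk1 start is shown because its peak lies just inside the gene. The upstream Pklr start is shown because it holds the longer GATA word although no peak was called there. Each line gives the 250 bases before the start, 5′ to 3′ on the strand of the gene, from RefSeq on GRCm38.p6, the assembly also called mm10. Capitals mark GATA or its reverse complement TATC, and CACCC or its reverse complement GGGTG.
Aldoa second start, chr7:126799255-126799504, minus strand: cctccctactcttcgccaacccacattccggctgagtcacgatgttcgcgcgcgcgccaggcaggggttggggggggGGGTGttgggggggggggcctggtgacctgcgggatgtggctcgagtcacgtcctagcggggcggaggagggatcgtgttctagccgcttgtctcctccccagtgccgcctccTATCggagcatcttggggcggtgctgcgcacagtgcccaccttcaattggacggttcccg
Aldoa outer start, chr7:126800448-126800697, minus strand: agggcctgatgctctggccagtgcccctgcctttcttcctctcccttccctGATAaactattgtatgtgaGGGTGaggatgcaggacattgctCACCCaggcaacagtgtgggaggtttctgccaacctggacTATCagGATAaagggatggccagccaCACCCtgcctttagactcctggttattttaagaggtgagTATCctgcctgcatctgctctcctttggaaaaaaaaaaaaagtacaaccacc
Hk1 inner start, chr10:62340422-62340671, minus strand: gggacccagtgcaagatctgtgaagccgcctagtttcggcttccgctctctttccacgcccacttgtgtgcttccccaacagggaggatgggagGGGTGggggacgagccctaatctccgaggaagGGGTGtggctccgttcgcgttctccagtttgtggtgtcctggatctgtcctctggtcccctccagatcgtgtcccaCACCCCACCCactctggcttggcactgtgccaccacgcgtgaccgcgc
Pgk1 start, chrX:106186850-106187099, plus strand: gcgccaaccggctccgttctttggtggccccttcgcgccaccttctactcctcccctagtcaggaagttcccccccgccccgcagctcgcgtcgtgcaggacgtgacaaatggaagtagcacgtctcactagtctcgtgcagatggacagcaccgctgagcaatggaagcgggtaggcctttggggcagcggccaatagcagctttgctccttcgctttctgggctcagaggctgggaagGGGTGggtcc
Pklr upstream start, chr3:89135892-89136141, plus strand: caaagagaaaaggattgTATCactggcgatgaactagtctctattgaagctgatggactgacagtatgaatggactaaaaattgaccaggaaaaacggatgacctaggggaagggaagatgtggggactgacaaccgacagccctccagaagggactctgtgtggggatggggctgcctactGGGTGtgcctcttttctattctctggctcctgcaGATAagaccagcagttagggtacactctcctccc

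Hk1 encodes hexokinase 1, which traps glucose in the cell by phosphorylating it and is the main hexokinase of red cells. The gene lies on the minus strand at chr10:62268855-62379920 and spans 111 kb. RefSeq gives it 2 starts, the outer one near its upstream end and the inner one 39.5 kb into the gene. All 5 peaks lay inside the gene and around the inner start. In the direction of transcription they were at chr10:62345158-62345557, chr10:62342571-62342970, chr10:62332589-62332988, chr10:62329023-62329422 and chr10:62327517-62327916. The first peak was 4.94 kb upstream of the inner start and the second 2.35 kb upstream of it. The other 3 were 7.63, 11.2 and 12.7 kb downstream of it. The nearest midpoint to the outer start was 34.6 kb away. The annotation used gives no exons, so whether these peaks lie in introns was not examined.

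The gaps between neighbouring Hk1 midpoints were 2.59, 9.98, 3.57 and 1.51 kb, and the widest gap held the inner start. From the first midpoint to the last was 17.6 kb. No other 5 successive peaks in the whole list stood this close together. The next tightest set of 5 spanned 21.2 kb, at Btg2, and the next after that 26.7 kb, at Zfpm1. At least 5 peaks inside the gene were found for 8 protein-coding genes (0.0367%), and for 7 of the 2427 genes of at least 100 kb (0.288%). Since Hk1 was picked for its peaks, its place in this order is a description. Peak positions alone cannot tell separate sites from 1 broad region called several times.

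**Figure D2:**
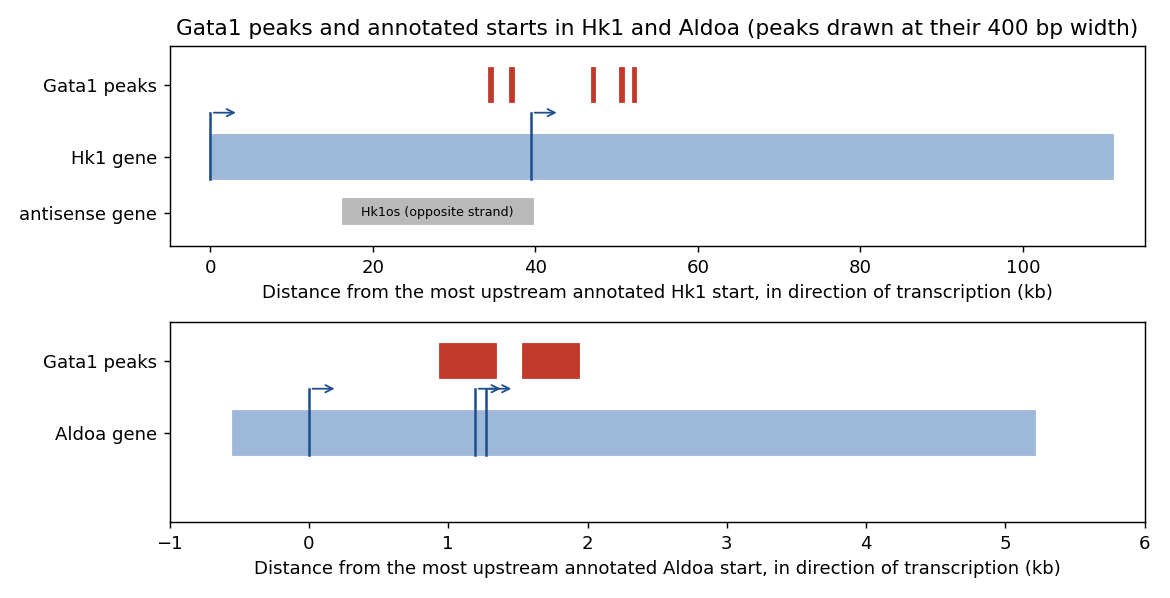
Peaks are drawn at their width of 400 bp above the gene bars of Hk1 (top) and Aldoa (bottom). The horizontal axes give the distance from the most upstream annotated start in kb, and arrows mark annotated starts. In Hk1 2 peaks precede and 3 follow the inner start at 39.5 kb. In Aldoa 1 peak covers both inner starts and the other lies just after them.

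The first and second Hk1 peaks also lay inside Hk1os, a long noncoding RNA gene on the opposite strand whose start is 187 bp from the inner Hk1 start. Hkdc1, which encodes a hexokinase-like protein, is the next gene upstream of Hk1, and the first Hk1 peak lay 37.8 kb from it. The sequence before the inner Hk1 start, shown above, holds no GATA word and 4 CACCC words, and 1 more follows the start in the 300-base window that runs from 250 bases before a start to 50 after it. In that window the longer word CCACACCC, counted within the same matches, was found at 2 places, beginning 124 and 51 bases before the start. It was found in 3.63% of 21263 such windows of protein-coding genes. The peaks themselves, 2.35 kb away at the nearest, lay outside every sequence used here.

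Aldoa encodes aldolase A, the form of the sugar-splitting enzyme used by muscle and red cells. It lies on the minus strand at chr7:126795234-126800994, spans 5.76 kb and has 3 annotated starts within 1.27 kb. The gene extends upstream of the outermost of these starts, which is at chr7:126800447. One peak, chr7:126799105-126799504, had its midpoint 50 bp upstream of the second start and 126 bp upstream of the innermost one, and 1.14 kb downstream of the outer one. Another, chr7:126798511-126798910, lay 544 bp downstream of the second start and 468 bp downstream of the innermost one. The midpoints of this pair were 594 bp apart, and 15 of 4112 neighbouring pairs in the list were that close or closer. Both peaks thus sat at the inner starts and not at the outer one.

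The 300-base windows of the 2 inner Aldoa starts lay wholly inside the first peak. They share most of their sequence, and in both the only GATA word was the same TATC. It begins 60 bases before the second start and 10 bases upstream of the peak midpoint. Neither AGATAA nor TGATAA was found in them. In all, 100 windows of protein-coding genes lay wholly in a peak, and GATA was found in 85.0% of them and AGATAA or TGATAA in 40.0%. Among all 21263 windows the shares were 53.2% and 15.9%. The outer Aldoa window, which overlapped no peak, held 1 TGATAA beginning 200 bases before its start, 3 further GATA words and 1 CCACACCC.

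The remaining pair of peaks in the Aldoa window lay beyond the downstream end of the gene and nearer to other genes. The peak at chr7:126780183-126780582 was 14.9 kb from Aldoa, inside Ypel3 and 1.10 kb upstream of the start of Tbx6, a T-box factor gene of early mesoderm. The peak at chr7:126776402-126776801 was 18.6 kb from Aldoa and 362 bp upstream of the start of Ypel3. 8 other coding genes touch the Aldoa window.

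Pgk1 encodes phosphoglycerate kinase 1, the first ATP-yielding enzyme of the path. It lies on the plus strand at chrX:106187100-106203699. Its 1 peak, chrX:106187448-106187847, was centred 547 bp downstream of the start, inside the gene, and was 1 of 42 peaks on the X chromosome. With Aldoa this made 2 of 10 genes with a midpoint within 1 kb of an annotated start, against 4.26% of the 17492 protein-coding genes with an annotated start in the table. On the X chromosome 13 such genes were found. The 300-base Pgk1 window held no GATA word and held CCGCCC, the core of GC boxes, at 5 places on either strand. It did not overlap the peak, whose own sequence was not examined.

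Bpgm encodes bisphosphoglycerate mutase, an enzyme made mainly in red cells. It lies on the plus strand at chr6:34476356-34505136. One peak, chr6:34486332-34486731, lay inside the gene 10.2 kb downstream of the start. The other, chr6:34517694-34518093, lay 12.8 kb beyond the downstream end of the gene. No other coding gene touches the window of Bpgm, and the nearest other coding gene to the second peak was Cald1 at 80.6 kb. The annotated start nearest to that peak was 6.11 kb away and belongs to Gm52898, which is not among the protein-coding genes used. The start of Bpgm was 41.5 kb from it. The Bpgm start itself had no peak, and its 300-base window held the GATA word at 2 places, both as TATC.

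Tpi1 encodes triosephosphate isomerase, which interconverts the products of aldolase. It lies on the minus strand at chr6:124810586-124814158. Its 1 peak, chr6:124827969-124828368, was 14.0 kb upstream, inside Usp5 and 2.01 kb upstream of the start of Cdca3. No start of Usp5 was among the annotated starts used, so the distance of the peak from it is not known here. 8 other coding genes touch the Tpi1 window. When each peak was given only to the nearest coding gene, Tpi1 had 0 peaks and Aldoa had 2, while Hk1, Bpgm and Pgk1 kept all of theirs. Of the 4 peaks outside the genes, 3 were nearer to another coding gene.

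No peak was called within 50 kb of the other 5 genes. Pgam1, which encodes the phosphoglycerate mutase of most tissues, had its nearest peak at 76.3 kb, beside Frat1. Hk2, which encodes the insulin-responsive hexokinase of muscle and fat, had its nearest at 149 kb. Pfkl, encoding the liver-type subunit of phosphofructokinase, had its nearest at 175 kb. Gpi1, encoding the isomerase that follows hexokinase, had its nearest at 473 kb. A gene without a peak is one where none was called, and binding below the unstated threshold cannot be seen.

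Pklr had its nearest peak at 250 kb. It encodes the pyruvate kinase of red cells and liver, and in humans and rats the upstream of 2 starts serves red cells and the downstream one liver. The mouse gene lies on the plus strand at chr3:89136122-89146815, with annotated starts 481 bp apart. As shown above, the sequence before its upstream start holds AGATAA, beginning 35 bases before the start, and CACCC as GGGTG, 68 bases before it. Its other GATA word begins 233 bases before the start. The downstream window held neither GATA nor CACCC.

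The 10 genes have 14 annotated starts in the promoter table. AGATAA or TGATAA was found on either strand in 2 of the 14 windows, against 15.9% of all windows, and these were the outer Aldoa and the upstream Pklr window. Neither overlapped a peak. GATA alone, which includes those words, was found in 7 of the 14, against 53.2%. CACCC was found in 8 of 14 against 59.5%, CCACACCC in 2 of 14 against 3.63%, CCGCCC in 9 of 14 against 46.2%, and CANNTG, the E-box bound by Tal1 and its partners, in 9 of 14 against 69.0%. The median GC content was 59.8% in the 14 windows and 56.3% in all. A match is only a match of letters, and windows of 1 gene can overlap. The peaks in Hk1, Bpgm and Pgk1, and the peak of Aldoa downstream of its inner starts, lay outside these windows, so their sequence was not examined.

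Elsewhere along the path, too, some isozyme genes had a peak inside and others did not. Over 12 enzyme activities from hexokinase to lactate dehydrogenase, 28 genes were examined, and 9 of them (32.1%) had a peak inside the gene, against 9.34% of all protein-coding genes. Of the 9, 4 were the listed genes Hk1, Aldoa, Pgk1 and Bpgm. Since Hk1 was picked for its peaks, the pooled share is a description without a test. Of the 18 genes outside the list, 5 (27.8%) had a peak inside the gene, against the same 9.34%. The 9 belonged to 7 of the 12 activities. For phosphofructokinase the peaks were in Pfkm, 4.36 kb inside its nearest start, and in Pfkp at 6.12 kb, which encode the muscle and platelet subunits, while Pfkl had none. For enolase the peak was in Eno1, the form of most tissues, 934 bp downstream of the start, and Eno2, Eno3 and Eno4 had none inside. For hexokinase Hk3 had 1, 5.53 kb inside, and Hk2 and Hkdc1 had none inside. Ldhc, the sperm form of lactate dehydrogenase, had 1, and that peak was also the only one within 50 kb of its neighbour Ldha. No gene of the glucose phosphate isomerase, triosephosphate isomerase, glyceraldehyde phosphate dehydrogenase, phosphoglycerate mutase and pyruvate kinase activities had a peak inside. Gapdh had its nearest at 90.5 kb and Pkm at 114 kb.

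**Figure D3:**
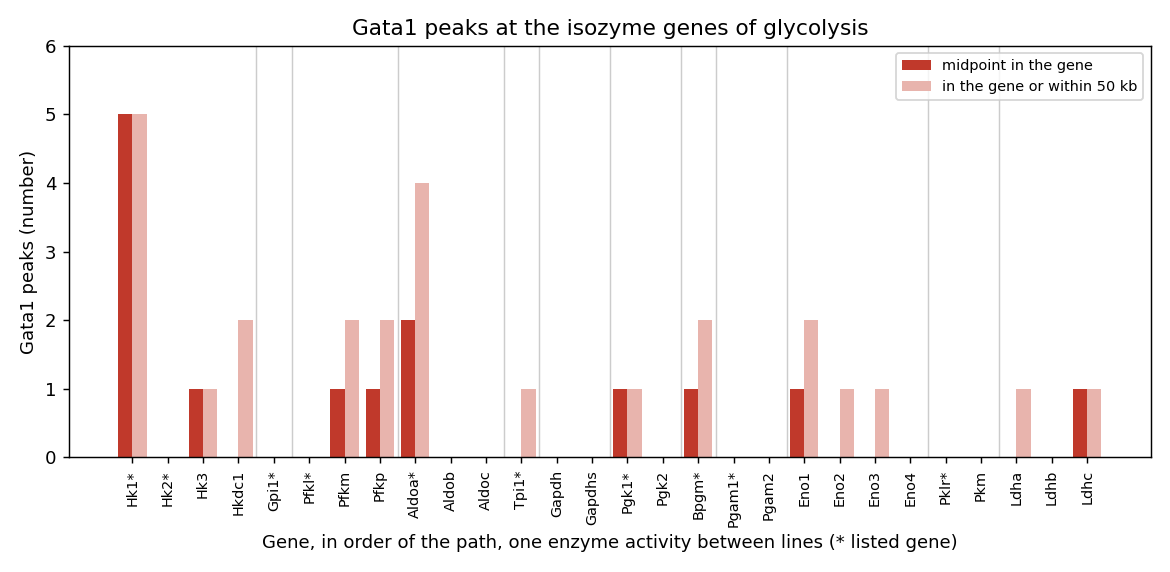
Bars give the number of peaks with a midpoint in the gene (dark) and in the gene or within 50 kb (light) for 28 glycolysis genes in path order, with lines between enzyme activities and asterisks on the 10 listed genes. Hk1 stands highest with 5, and for phosphofructokinase the peaks inside the gene stand at Pfkm and Pfkp and not at Pfkl.

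A list of 49 further genes held other enzymes of the path, its regulators, glucose and lactate transporters, and the pentose phosphate and gluconeogenesis enzymes. Of these, 12 (24.5%, 95% Wilson interval 14.6 to 38.1%) had a peak inside the gene, against 9.34% of all protein-coding genes. Within 50 kb the count was 27 (55.1%, 41.3 to 68.1%) against 32.0%. Genes within such windows share peaks with neighbours, so the wider count is the less specific one. Hkdc1 is among the 27 only through the first and second Hk1 peaks, and Hk1 was picked for its peaks. Ldha is among them only through the peak inside Ldhc. The interval does not allow for such sharing.

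Of these groups, the 9 regulators and side-branch enzymes had the largest share with a peak inside the gene. They include the bifunctional Pfkfb enzymes, which set the level of a fructose bisphosphate that activates phosphofructokinase. Inside the gene 5 of 9 had a peak (55.6%, 95% Wilson interval 26.7 to 81.1%), against 9.34% of all protein-coding genes, and 6 of 9 had one inside or within 1 kb, against 11.3%. These 9 genes are long, from 24.4 to 82.6 kb with a median of 44.0 kb, and the 5 with a peak inside are each at least 40.2 kb. The part of their length in this count was not tested. The interval does not allow for taking the highest of several groups, or for a list drawn up with earlier results known. The share is therefore a description without a test. Pfkfb4 had 2 inside the gene, 1.16 and 8.61 kb downstream of its nearest start, and a further one 7.67 kb outside the gene and inside Shisa5. Pfkfb1 on the X chromosome had 1 inside, 1.11 kb downstream of a start, and its other 2 were the peaks inside Alas2 and the overlapping Apex2. Pfkfb2 had 1 inside and Pfkfb3 had 0 within 50 kb. Pgm2l1 had a peak 185 bp upstream of a start. Tigar, whose product degrades that activator, had one 214 bp upstream of its start.

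Of the 8 transporters, 1 had a peak inside the gene, near the 9.34% of all protein-coding genes. Within 10 kb 2 of 8 had one, against 16.6% of all, and within 50 kb 7 of 8, against 32.0%. Slc16a1, which encodes the lactate transporter MCT1, had a peak 241 bp upstream of its start. Slc2a3, a glucose transporter gene, had 1 inside. Slc2a1, encoding the GLUT1 glucose transporter, had its nearest at 31.5 kb. Slc2a4, encoding the insulin-responsive glucose transporter, had 3 within 50 kb, the nearest at 25.9 kb inside Gps2. Of the 8 pentose phosphate genes, which supply the red cell with NADPH, 1 had a peak inside, near the 9.34% of all protein-coding genes, namely Tkt at 1.3 kb downstream of a start. G6pdx, encoding the enzyme that starts that branch, had its nearest at 139 kb. Of the 6 gluconeogenesis genes, 0 had a peak inside, against 9.34% of all, and 2 (33.3%) had one within 50 kb, near the 32.0% of all. Pck2 had 3 there, the nearest 10.9 kb away inside Dcaf11.

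**Figure D4:**
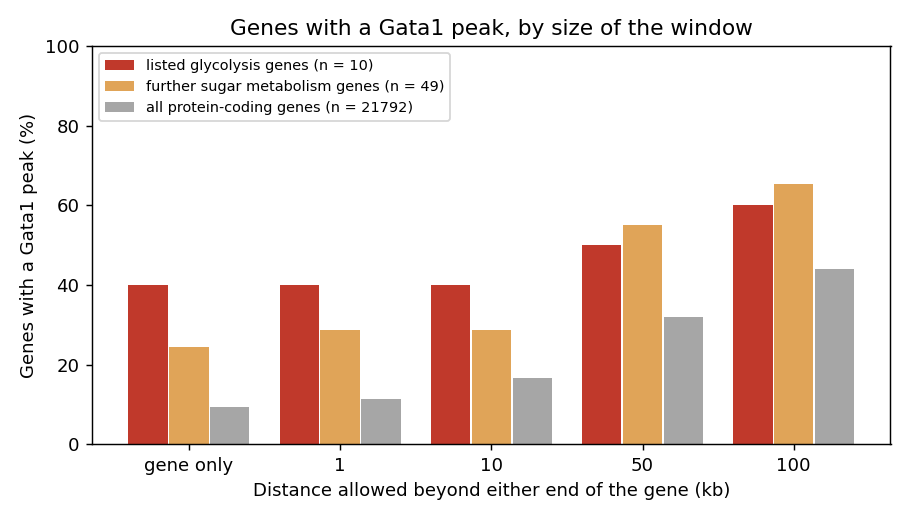
Bars give the percentage of genes with a Gata1 peak midpoint in the gene only or up to 1, 10, 50 or 100 kb beyond its ends, for the 10 listed genes, the 49 further genes and all 21792 protein-coding genes. The listed genes stay at 40.0% up to 10 kb, against 9.34% to 16.6% of all genes, and reach 60.0% at 100 kb against 43.9%.

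The share depended on the window. Inside the gene, within 1 kb and within 10 kb it was the same 4 of 10 genes, against 9.34%, 11.3% and 16.6% of all protein-coding genes. At 100 kb Pgam1 was added, giving 6 of 10 against 43.9%. The median distance from a gene to its nearest peak was 45.1 kb for the 10 genes and 37.8 kb for the 49 further genes, against 135 kb for all protein-coding genes. The first of these falls in a wide gap, between Tpi1 at 14.0 kb and Pgam1 at 76.3 kb. The 10 genes include Hk1, which was picked for its peaks. Without Hk1 the middle value is that of Pgam1. The median gene length was 19.8 kb for the 10 genes and 19.4 kb for the 49 further genes, against 17.2 kb for all. The part of gene length in these shares was not tested.

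**Figure D5:**
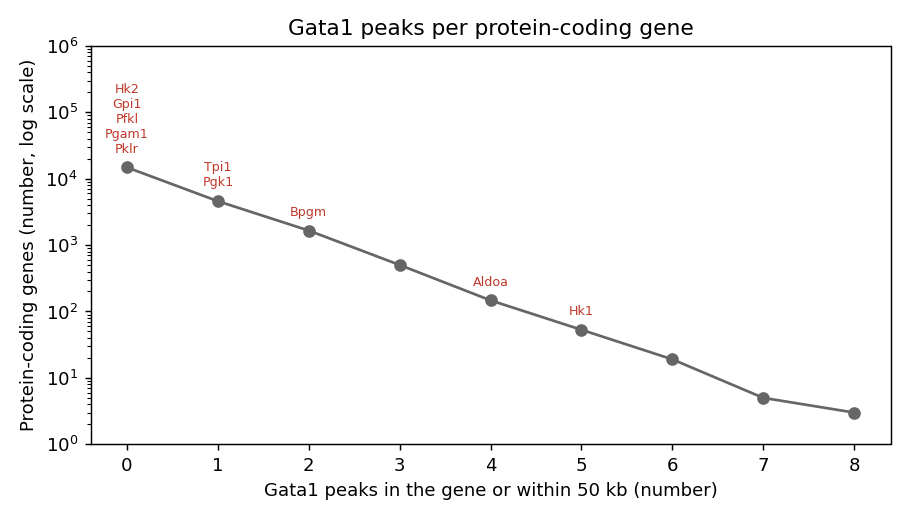
Points give the number of protein-coding genes (log scale) by their number of Gata1 peaks in the gene or within 50 kb, with the 10 glycolysis genes named above their values. Hk1 is among 53 genes with 5 peaks and Aldoa among 147 with 4, while 14819 genes have 0.

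Counted within 50 kb, at least 4 peaks were found for Hk1 and Aldoa, 2 of the 10 genes, against 1.04% of all protein-coding genes, and at least 5 for Hk1 alone, against 0.367%. Hk1 was chosen for this count, and 2 of the Aldoa peaks lay at Ypel3 and Tbx6.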

How the data were processed

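ChIP-seq for Gata1 was analysed from 1 deposited list of peak positions (chromosome, start, end), without header, score or replicate. Per the submitters' processing notes, Bowtie2 2.0.6 and MACS2 2.0.10 were used with build mm10. The settings, the peak threshold and any use of the input are not stated by these notes or by the labels. All 4135 deposited intervals were 400 bp wide.

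Genes came from RefSeq for GRCm38.p6. Gene entries placed under 3 Mb on chromosomes other than Y and the mitochondrial one (340) carry scaffold positions and were dropped, which left 49640 genes, 21792 of them protein-coding. Starts, strands and sequence came from the RefSeq promoter table, which held all 10 genes and 17492 protein-coding genes in all. Peak midpoints were compared with gene bodies plus 50 kb. Positions are 1-based. Motifs were searched on both strands. Python 3.11.15, numpy 2.4.6, scipy 1.17.1, pandas 2.3.3 and matplotlib 3.10.9 were used, and the counting functions were tested on simulated data. With 1 library no test was made. Wilson intervals cover counting of genes only.

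The genes and lists were chosen with earlier results of these data known. All 10 genes are named. 1 gene of the wider list is not reported here. Of the 49 other further genes, all of which matched, the rule named up to 5 with the most peaks within 50 kb, ties by distance. It gave Pfkfb1, Pfkfb4, Pck2 and Slc2a4 with 3 each. The next place was tied among 5 genes with 2 peaks and one inside the gene (Pfkm, Pfkp, Eno1, Pfkfb2 and Slc2a3), all of which are named. The others, and the genes in the comparison of peak runs, were named after their values were seen. Alternatives were gene windows of other sizes, any overlap, peaks within 2 kb counted once, the nearest gene only and GATA alone.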

Additional observations from a re-analysis of the deposited data

How the results depend on the processing

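The number of the 10 genes with a peak ranged from 4 to 6 under all 7 alternatives chosen with the design. From the gene only to 100 kb, the share of all protein-coding genes with a peak rose from 9.34% to 43.9%. It was not computed for any overlap, for peaks within 2 kb counted once or for the nearest gene only. The number of distinct peaks in the windows of the 10 genes ranged from 9 to 16. Without Hk1, an alternative chosen after the data were seen, 4 genes had a peak and the number of peaks was 8. The count of the 49 further genes was 27 within 50 kb, against 32.0% of all protein-coding genes. It was 12 inside the gene, against 9.34% of all, 14 within 1 kb, against 11.3%, and 14 within 10 kb, against 16.6%. With each peak given to its nearest coding gene only it was 16. The share of all genes under that last setting was not computed. Narrower windows give fewer genes by construction. Taken over each of the 10 genes and 7 alternatives, the number of peaks per gene stayed at 0 or within 1.5 times in 57 of 70 cases and moved further in 13, which concerned 4 genes (Aldoa, Tpi1, Pgam1 and Bpgm). Hk1 kept 5 peaks except that 4 were left when peaks within 2 kb were counted once and 6 were found within 100 kb. GATA alone was found in 7 promoter windows, and AGATAA or TGATAA in 2. No paired analysis was possible because there is 1 library per group. A stricter peak threshold was not run, since the list has no score, and depth could not be examined.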

Other observations

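In Hk1 and Aldoa the annotated start nearest to a peak was an inner one, 2349 bp and 50 bp away, and this was noticed in the data. Among all protein-coding genes with annotated starts at least 500 bp apart and a peak inside the gene, an inner start was the nearest in 266 of 357 (74.5%, 95% Wilson interval 69.7 to 78.8%). Inner starts lie inside the gene, as these peaks do by their selection, so this share is a description only.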
